A study of Mus musculus with 32 samples.

Results

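The SIK, MARK and NUAK kinases and SNRK are serine/threonine kinases related to AMPK, and the tumor suppressor LKB1 (gene *Stk11*) is the kinase that switches them on. Their 10 genes, *Sik1*, *Sik2*, *Sik3*, *Mark1*, *Mark2*, *Mark3*, *Mark4*, *Nuak1*, *Nuak2* and *Snrk*, were taken from the gene table of each library by symbol, out of 53558 genes, and all 10 were present. AMPK itself was left out of the set. The RNA of each gene was followed in lung tumor cells of mice in which *Lkb1* was intact, disrupted, or disrupted and then restored.

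All tumors were initiated by intratracheal Lenti-Cre in mice carrying Rosa26LSL-tdTomato, so that Cre turned on the tdTomato reporter in the transduced cells, and all groups shared the same tumor-initiating background. The *KT* group (Rosa26LSL-tdTomato, wild-type for *Lkb1*, untreated, 4 libraries) was compared with non-restored tumors (10 libraries) and restored tumors (7 libraries), both of which also carried Lkb1XTR/XTR, a gene-trap allele that blocks *Lkb1* after Cre and can be reverted by FLP recombinase. Restored tumors carried FLPo-ERT2 at Rosa26 and received tamoxifen, while non-restored tumors either carried FLPo-ERT2 and received corn oil vehicle (6 libraries) or lacked FLPo-ERT2 and received tamoxifen (4 libraries). A second set additionally carried Trp53flox/flox and comprised 7 non-restored libraries from 4 animals (5 vehicle, 2 tamoxifen without FLPo-ERT2) and 4 restored libraries. Tumors grew for 24 to 27 weeks, or 16 to 19 weeks in the *Trp53*-deficient set, and tamoxifen was given as 4 mg doses for 2 weeks before harvest. Neoplastic cells were sorted from microdissected tumors as tdTomato-positive cells lacking CD45, CD31, F4/80 and Ter119. All 7 restored and all 4 *Trp53*-deficient restored libraries came from female mice. Of the others, 2 of 4 *KT*, 7 of 10 non-restored and 4 of 7 *Trp53*-deficient non-restored libraries did. FLPo-ERT2 and tamoxifen occurred together only in restored tumors. *KT* tumors were initiated with another dose of Lenti-Cre, so *KT* differed from the XTR groups in more than *Lkb1*.

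LKB1, bound to the pseudokinase STRAD and the scaffold MO25, phosphorylates each of these kinases on 1 conserved threonine of the activation loop, the flexible stretch that must be phosphorylated before the kinase can act. The SIKs phosphorylate the CRTC coactivators of CREB and the class IIa histone deacetylases, which are then held in the cytoplasm by 14-3-3 proteins. The MARKs phosphorylate microtubule-associated proteins and polarity proteins, the NUAKs phosphorylate the regulatory subunit of myosin phosphatase, and SNRK has been studied mainly in metabolism and in the heart and vessels. Since activation is by phosphorylation, RNA levels do not measure kinase activity.

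The coding sequence of the activation loop is given for each gene because it is the site through which LKB1 acts on all 10. Each stretch runs 5′ to 3′ on the coding strand from the codons of the conserved DFG motif to those of the APE motif, whose counterpart in *Nuak1* and *Nuak2* opens with a serine codon, with the codon of the LKB1-phosphorylated threonine in capitals, and was read from the longest coding transcript of GENCODE M21 on GRCm38.
Sik1: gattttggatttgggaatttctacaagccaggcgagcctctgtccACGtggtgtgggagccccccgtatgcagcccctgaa
Sik2: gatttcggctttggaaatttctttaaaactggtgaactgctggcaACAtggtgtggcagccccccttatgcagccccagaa
Sik3: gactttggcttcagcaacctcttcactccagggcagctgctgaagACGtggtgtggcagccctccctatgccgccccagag
Mark1: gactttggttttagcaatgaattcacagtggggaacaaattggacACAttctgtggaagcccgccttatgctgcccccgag
Mark2: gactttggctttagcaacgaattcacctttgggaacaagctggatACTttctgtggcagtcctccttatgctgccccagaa
Mark3: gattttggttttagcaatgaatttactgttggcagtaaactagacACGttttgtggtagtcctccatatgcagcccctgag
Mark4: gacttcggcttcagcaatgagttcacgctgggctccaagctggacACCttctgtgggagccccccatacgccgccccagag
Nuak1: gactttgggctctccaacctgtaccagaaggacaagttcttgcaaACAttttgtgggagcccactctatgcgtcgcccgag
Nuak2: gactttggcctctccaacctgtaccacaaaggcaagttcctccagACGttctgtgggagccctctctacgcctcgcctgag
Snrk: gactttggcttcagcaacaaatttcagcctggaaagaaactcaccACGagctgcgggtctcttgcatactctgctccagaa
The threonine codon was number 182 in *Sik1*, 175 in *Sik2*, 221 in *Sik3*, 215 in *Mark1*, 208 in *Mark2*, 211 in *Mark3*, 214 in *Mark4*, 212 in *Nuak1*, 220 in *Nuak2* and 173 in *Snrk*. In the 3 SIK genes the stretch was split over 2 exons, at chr17:31850986-31851235 (minus strand) for *Sik1*, chr9:50917573-50935416 (minus) for *Sik2* and chr9:46155540-46177951 (plus) for *Sik3*, the intron included in each span. In the other 7 it lay in 1 exon, at chr1:184919629-184919709 (minus) for *Mark1*, chr19:7285843-7285923 (minus) for *Mark2*, chr12:111627121-111627201 (plus) for *Mark3*, chr7:19443228-19443308 (minus) for *Mark4*, chr10:84380780-84380860 (minus) for *Nuak1*, chr1:132329964-132330044 (plus) for *Nuak2* and chr9:122137484-122137564 (plus) for *Snrk*. Over these 81 bases, the 10 pairs within a family (SIK, MARK or NUAK) were 71.6% to 84.0% identical with a median of 77.2%, and the highest was *Nuak1* with *Nuak2*. The 35 pairs between families were 48.1% to 74.1% identical with a median of 61.7%, and the lowest was *Nuak1* with *Snrk*.

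Levels are given as CPM (counts scaled to the library total) after trimmed-mean normalization (TMM), so that libraries of unequal depth can be compared, and depth ran from 1302482 to 5943951 expected counts per library. *Stk11*, the gene the XTR allele disrupts, was at 16.65 to 27.46 CPM in *KT*, at 0 to 2 counts per library in non-restored tumors and at 11.74 to 22.48 CPM in restored tumors, with no overlap between non-restored and either other group. It passed the test in restored versus non-restored tumors (edgeR quasi-likelihood, Benjamini-Hochberg adjusted p = 9.83e-10) and in non-restored versus *KT* tumors (adjusted p = 6.58e-10). In the *Trp53*-deficient set *Stk11* was at 0 to 4 counts in non-restored animals and at 8.42 to 14.95 CPM in restored libraries. *Trp53* was at 1.37 to 4.88 CPM in *Trp53*-deficient and at 11.75 to 39.66 CPM in the other tumors. The alveolar type II marker *Sftpc*, a surfactant protein gene, averaged 29473 CPM in *KT*, 21425 in non-restored and 34075 in restored tumors. The groups overlapped, as the highest non-restored library was at 34775 CPM, above both other means. *Sftpc* did not pass in restored versus non-restored or in non-restored versus *KT* tumors.

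*Sik1* was the single kinase gene of the 10 whose RNA passed the edgeR test in any comparison: it was higher in non-restored than in *KT* tumors and lower in restored than in non-restored tumors. *Sik1* encodes a kinase whose own transcription is induced by cAMP through CREB and which restrains CREB targets by phosphorylating CRTCs. Its levels were 38.55, 79.11, 76.65 and 57.99 CPM in the 4 *KT* libraries. They ran from 85.22 to 202.8 with a median of 115.5 in the 10 non-restored libraries, all above the highest *KT* library. In the 7 restored libraries they ran from 60.11 to 85.78 with a median of 62.5, and 1 of the 7 lay just above the lowest non-restored library while the range overlapped that of *KT*. The means were 63.1 ± 18.9 (SD, n = 4), 125 ± 37.5 (SD, n = 10) and 69.6 ± 11.2 CPM (SD, n = 7). The counts behind these values were 56 to 889 per library. How many of all genes separate *KT* from non-restored libraries as *Sik1* did was not examined.

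The *Sik1* level of restored tumors was 0.553 times that of non-restored tumors, or -0.85 on the log2 scale, with an SE of 0.18, a 95% interval of -1.21 to -0.50 and an edgeR adjusted p of 0.0133. Non-restored tumors exceeded *KT* by 0.99 on that scale (SE 0.23, 95% interval 0.55 to 1.43, adjusted p = 0.0112). Restored and *KT* tumors were not distinguished, with a log2 fold change of 0.14 and a 95% interval of -0.31 to 0.59 (adjusted p = 0.896). Since these comparisons share libraries, they are not independent of each other. The study lists fewer mice than there are libraries in both non-restored arms and in the restored group, so libraries within them share mice. The labels do not say which libraries do, so each n given for these groups counts libraries. Their p-values are too small and their intervals too narrow. At an adjusted p under 0.05, 1.87% of the 12636 genes tested passed in restored versus non-restored tumors, 0.894% in the direction of *Sik1*, and 1 of the 9 kinase genes tested did. In non-restored versus *KT* tumors 5.86% of genes passed, 2.38% in the direction of *Sik1*, and again 1 of 9 kinase genes did. In restored versus *KT* tumors 0.459% of genes and 0 of 9 kinase genes passed (1 kinase gene, *Sik2*, at an unadjusted p under 0.05, and 0 with DESeq2). The share of kinase genes that passed rests on *Sik1* alone, and the median log2 fold change of the 9 was -0.07 in restored versus non-restored (all genes -0.01) and -0.06 in non-restored versus *KT* tumors (all genes 0.03). In bulk RNA, fewer cells of a type and less RNA per cell cannot be told apart.

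**Figure D1:**
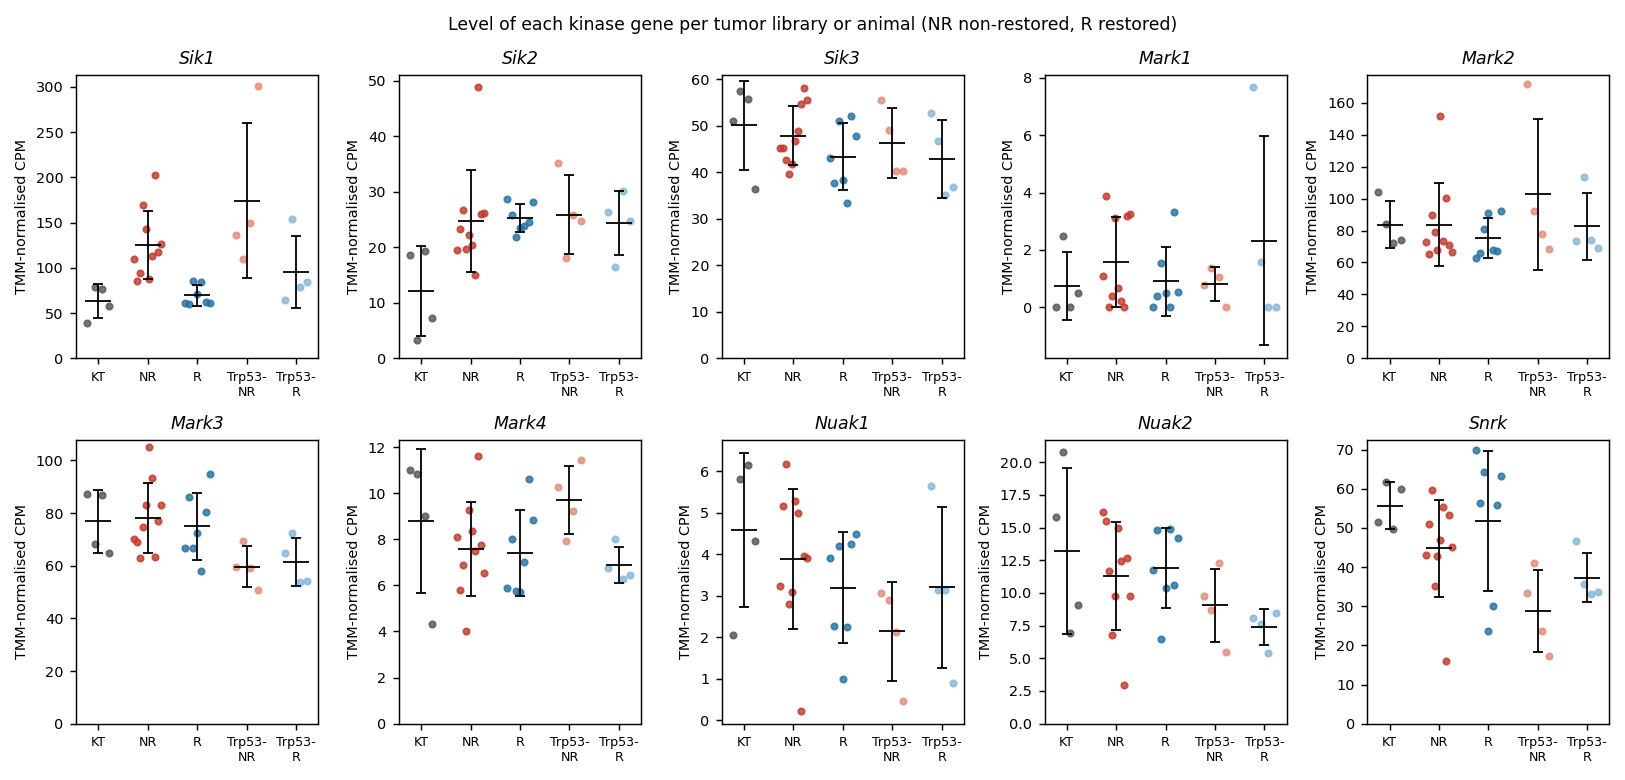
Level of each of the 10 kinase genes in TMM-normalized CPM (vertical axis, linear, scaled per gene) for each library, or each animal for the *Trp53*-deficient non-restored group, by group (NR non-restored, R restored). Points are libraries or animals, bars the mean ± SD. All 10 non-restored points of *Sik1* lie above the 4 *KT* points. The restored points of *Sik2*, from 21.83 to 28.71 CPM, lie above its *KT* points, a difference that did not pass the edgeR test. The share of all genes whose points separate in these ways was not examined.

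Between the non-restored arms, which differ in both tamoxifen and FLPo-ERT2, *Sik1* did not separate. It averaged 130 ± 50.8 CPM (SD, n = 4) in the tamoxifen arm without FLPo-ERT2 and 122 ± 31.0 CPM (SD, n = 6) in the vehicle arm with it, and the ranges overlapped (85.22 to 202.8 and 87.48 to 169.1 CPM). The log2 fold change was 0.11 (SE 0.23, 95% interval -0.34 to 0.57, edgeR adjusted p = 1.00). In that comparison 0.00791% of genes and 0 of 9 kinase genes passed. Effects of tamoxifen and of FLPo-ERT2 cannot be told apart in it. With the tamoxifen arm alone as the non-restored group, which leaves 4 libraries, *Sik1* in restored tumors was at -0.92 (SE 0.22) with an adjusted p of 0.0897. With sex as a covariate the restored difference was -0.96 (adjusted p = 0.00603), and among female libraries alone it was -0.92 (SE 0.18, adjusted p = 0.0174). The *KT* contrast depended more on single libraries: without *KT* library 1 it was 0.82 (adjusted p = 0.0560), and among female libraries alone, with 2 *KT* libraries, it was 0.76 (SE 0.28, adjusted p = 0.249).

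**Figure D2:**
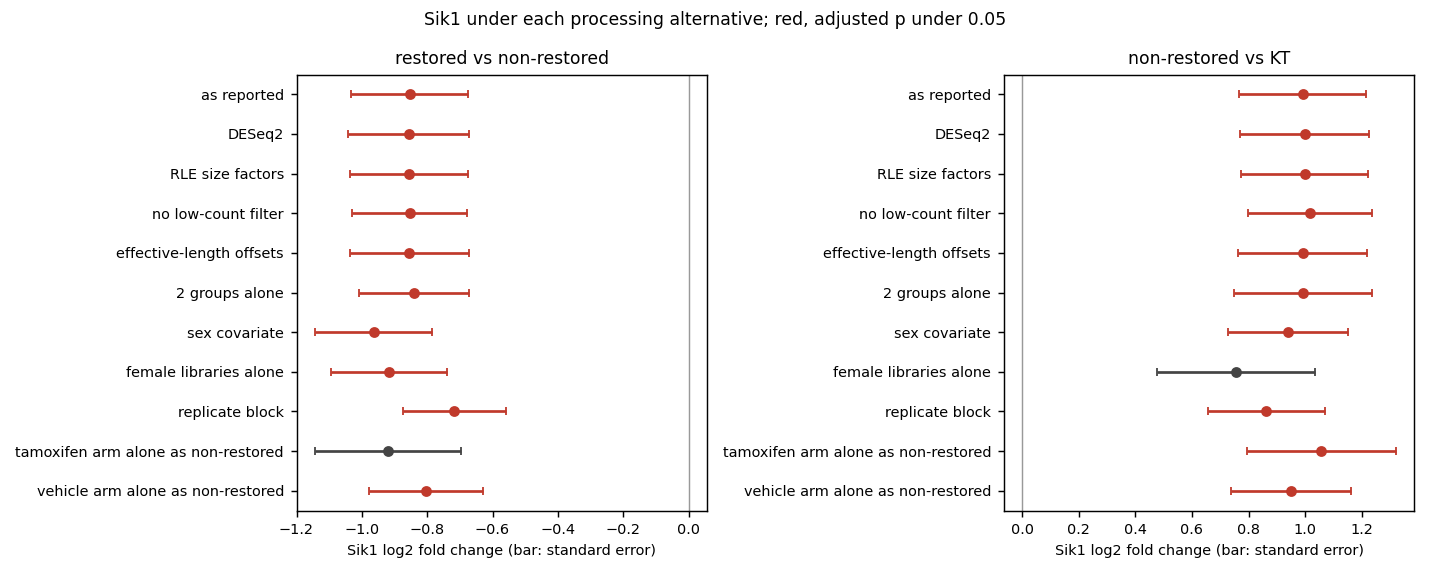
Log2 fold change of *Sik1* (horizontal axis) in restored versus non-restored (left) and non-restored versus *KT* tumors (right) under each processing alternative (rows), with bars of 1 standard error and red for an adjusted p under 0.05. The left values run from -0.96 to -0.72 and the right values from 0.76 to 1.06, and the dark points are the 2 alternatives in which the adjusted p was above the threshold.

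In the *Trp53*-deficient set *Sik1* was at 136.3, 109.9, 150.1 and 300.6 CPM in the 4 non-restored animals and at 64.74, 153.7, 79.02 and 84.34 CPM in the 4 restored libraries. One restored library lay among the non-restored animals and the other 3 lay below all of them. The log2 fold change was -0.83 (SE 0.37, 95% interval -1.55 to -0.11). By edgeR its unadjusted p was 0.0502 and its adjusted p 0.804, so it did not pass. The interval leaves out 0 because it is a normal approximation, which is too narrow with so few units. No gene passed by edgeR in this comparison (0% of 12516, with 748 at an unadjusted p under 0.05), and 23 passed with DESeq2. The comparison rested on 4 animals against 4 libraries. Even *Stk11*, at 5.15 on the log2 scale, did not pass (edgeR adjusted p = 0.0586). The *Sik1* value was -0.47 without the animal at 300.6 CPM and -1.17 without the restored library at 153.7 CPM. Sex was not balanced in this comparison, and among females alone *Sik1* was at -1.17 (SE 0.42, edgeR adjusted p = 0.635). The difference of the restoration effect between *Trp53*-deficient and *Trp53* wild-type tumors was -0.01 on the log2 scale (SE 0.36, 95% interval -0.73 to 0.70), an interval nearly as wide on each side as the effect itself. In this interaction 0% of 13706 genes passed (422 at an unadjusted p under 0.05, 0 with DESeq2) and so did 0 of 10 kinase genes. *Sik1* was at 0.48 (SE 0.24, adjusted p = 0.300) in *Trp53*-deficient versus wild-type non-restored tumors and at 0.46 (SE 0.26, adjusted p = 0.389) in the restored pair. These last comparisons had 0.584% and 0.372% of genes passing and 0 of 10 kinase genes in each. Tumor age differed with *Trp53* status, so the effects of age and *Trp53* cannot be told apart.

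*Sik2*, a close relative also acting on CRTCs, shared the direction of *Sik1* in non-restored versus *KT* tumors but not in restored versus non-restored tumors. It was at 18.59, 3.33, 19.27 and 7.19 CPM in the *KT* libraries, at 14.96 to 48.81 (median 22.71) in non-restored and at 21.83 to 28.71 (median 24.57) in restored tumors. All restored libraries lay above all *KT* libraries, and 2 of the 4 *KT* libraries overlapped the non-restored range. The share of all genes whose ranges separate in this way was not examined. The log2 fold change against *KT* was 1.02 (SE 0.33, adjusted p = 0.0675) for non-restored and 1.02 (SE 0.34, adjusted p = 0.229) for restored tumors, neither of which passed in edgeR. DESeq2 gave an adjusted p of 0.0225 for non-restored versus *KT*, and without *KT* library 3 the edgeR value was 1.35 with an adjusted p of 0.0455. The *KT* values rest on 4 to 47 counts. Between restored and non-restored tumors *Sik2* was at 0.00 with a 95% interval of -0.48 to 0.49. The difference between *Sik1* and *Sik2* was not tested. *Sik2* overlaps *Ppp2r1b*, a subunit gene of protein phosphatase 2A on the opposite strand, over 1429 bases, and whether reads were counted by strand is not stated in the sources used here. *Ppp2r1b* was at 1.21 (adjusted p = 0.156) in non-restored versus *KT* tumors, so the part of overlapping reads in *Sik2* was not tested.

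*Sik3*, which acts on class IIa histone deacetylases and CRTCs, was close to level. It averaged 50.1 ± 9.55 CPM in *KT* (SD, n = 4), 47.9 ± 6.33 in non-restored (SD, n = 10) and 43.4 ± 7.18 in restored tumors (SD, n = 7), with overlapping ranges. The log2 fold change was -0.16 in restored versus non-restored tumors (95% interval -0.39 to 0.08) and -0.06 in non-restored versus *KT* tumors (-0.34 to 0.23), and both intervals end short of the values of *Sik1*.

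**Figure D3:**
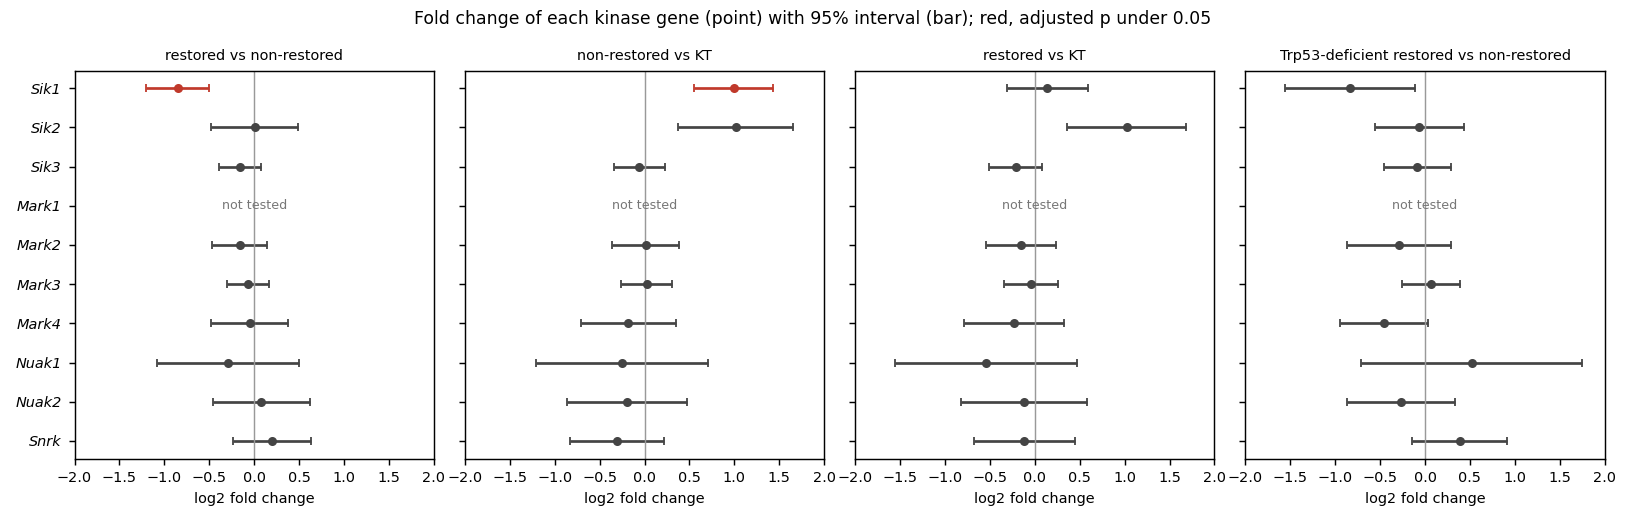
Log2 fold change (horizontal axis, points) with 95% intervals (bars) of each kinase gene (rows) in 4 comparisons (panels), red where the adjusted p was under 0.05. *Sik1* is red in the first pair of panels, at -0.85 and 0.99, and no other gene is red in any panel.

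The MARK genes showed no difference that passed the test. *Mark2*, a regulator of microtubules and epithelial polarity, averaged 83.6 ± 14.5 CPM in *KT* (SD, n = 4), 83.8 ± 26.2 in non-restored (SD, n = 10) and 75.5 ± 12.4 in restored tumors (SD, n = 7), and the restored difference was -0.16 (95% interval -0.47 to 0.14). *Mark3*, a polarity kinase also known as C-TAK1, had medians of 77.59, 75.71 and 72.37 CPM in the same groups with overlapping ranges, and its restored difference was -0.07 (95% interval -0.30 to 0.17). In the *Trp53*-deficient groups *Mark3* averaged 59.7 ± 7.66 and 61.4 ± 9.00 CPM (SD, n = 4 each). Its log2 fold change of -0.38 in *Trp53*-deficient versus wild-type non-restored tumors (SE 0.14, edgeR unadjusted p = 0.0137) had an adjusted p of 0.177. *Mark4*, a microtubule kinase with low counts here (9 to 80 per library or animal), averaged 8.79 ± 3.12, 7.58 ± 2.05 and 7.39 ± 1.86 CPM in *KT*, non-restored and restored tumors. In the *Trp53*-deficient set *Mark4* was at 10.26, 7.93, 9.24 and 11.42 CPM in non-restored animals and at 6.77, 8.03, 6.29 and 6.47 CPM in restored libraries, overlapping by a single pair, and the difference was -0.45 on the log2 scale (SE 0.25, adjusted p = 0.804). *Mark1*, best known as a kinase of tau in neurons, was near the limit of detection: it had 128 counts over all 32 libraries and 0 in several, and was too low to be tested except in the comparisons across *Trp53* status, where it did not pass. Its highest value was 7.67 CPM (34 counts) in a *Trp53*-deficient restored library. In the libraries without a *Mark1* count, a count of 0 allows up to 0.658 to 2.04 CPM, taken from library totals without TMM.

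Neither the NUAK genes nor *Snrk* passed in any comparison. *Nuak1*, a kinase of the myosin phosphatase subunit MYPT1, was carried by 1 to 26 counts per library or animal and averaged 4.59 ± 1.86 CPM in *KT* (SD, n = 4), 3.89 ± 1.69 in non-restored (SD, n = 10) and 3.20 ± 1.35 in restored tumors (SD, n = 7). Its restored difference was -0.29 with a 95% interval of -1.08 to 0.50, so at this depth halving could not be told from no change. *Nuak1* lies 4.24 Mb from *Stk11* on chromosome 10, at chr10:84370905-84440597, and none of the 26 genes tested within 2 Mb of it passed in the 3 comparisons of *KT*, non-restored and restored tumors. *Nuak2*, which is linked to YAP signalling and actomyosin contractility, averaged 13.2 ± 6.34, 11.3 ± 4.12 and 11.9 ± 3.05 CPM in the same groups, and its restored difference was 0.08 (95% interval -0.46 to 0.62). *Nuak2* was at -0.67 in *Trp53*-deficient versus wild-type restored tumors (SE 0.32, edgeR unadjusted p = 0.0498, adjusted p = 0.322).

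*Snrk* ranged from 49.6 to 61.62 CPM in *KT*, from 15.96 to 59.75 (median 45.99) in non-restored and from 23.55 to 69.81 (median 56.31) in restored tumors. Its restored difference was 0.20 (95% interval -0.24 to 0.63) and its difference between non-restored and *KT* tumors -0.31 (95% interval -0.83 to 0.21). In *Trp53*-deficient versus wild-type non-restored tumors *Snrk* was at -0.62 (SE 0.29, edgeR unadjusted p = 0.0409, adjusted p = 0.264). Without non-restored library 8 the same difference was -0.73 with an adjusted p of 0.0535. That library, of the tamoxifen arm, had the highest *Sik1* (202.8 CPM) and *Sik2* (48.81) and the lowest *Nuak1* (0.228), *Nuak2* (2.96) and *Snrk* (15.96) of the 10 non-restored libraries. Without it *Sik1* was at -0.74 in restored versus non-restored (adjusted p = 0.0112) and at 0.88 in non-restored versus *KT* tumors (adjusted p = 0.00741).

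To compare the 10 genes with each other, levels per transcript length are needed, and these are given as TPM, which divides by effective length. *Mark2* had the highest mean TPM in every group, from 69.7 in restored to 109 in *Trp53*-deficient non-restored tumors, whose animals ran from 55.0 to 191.6. In *KT* the order continued with *Mark3* (37.0), *Snrk* (35.8), *Sik1* (17.8), *Sik3* (16.5), *Nuak2* (7.75), *Sik2* (4.04), *Mark4* (3.53), *Nuak1* (1.05) and *Mark1* (0.368). The ranges of neighbours in that order overlapped, except between *Mark2* and *Mark3*, *Snrk* and *Sik1*, *Sik3* and *Nuak2*, and *Mark4* and *Nuak1*. *Sik1* ranked 4 of 10 in *KT* and restored tumors (17.8 and 20.9 TPM) and 3 of 10 in non-restored tumors (39.8 TPM, between *Mark3* at 43.1 and *Snrk* at 31.1, overlapping both). In *Trp53*-deficient non-restored tumors it ranked 2 of 10 (52.3 TPM, overlapping *Mark3* at 31.4). Of the summed SIK TPM, *Sik1* made up 46.0% ± 9.23 in *KT* (SD, n = 4), 59.7% ± 3.87 in non-restored (SD, n = 10) and 49.1% ± 6.14 in restored tumors (SD, n = 7). The summed SIK TPM averaged 38.3, 66.2 and 42.4 in these groups, the summed MARK TPM 117, 141 and 113, and the summed NUAK TPM 8.79, 9.11 and 7.64. The MARK medians were 112, 119 and 106, and the highest non-restored library was at 350. The TPM of genes with many transcripts moved with the transcript mix that was estimated per library: the effective length of *Mark2*, with 21 transcripts, ran from 724.5 to 2039 bases, and the non-restored library at 724.5 bases had a *Mark2* TPM of 287.7 although its CPM was 151.4. *Sik1* had 1 transcript in the deposited gene tables (4 in GENCODE M21, 1 of them coding) and an effective length of 4313 to 4332 bases, so its TPM did not depend on such a mix.

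**Figure D4:**
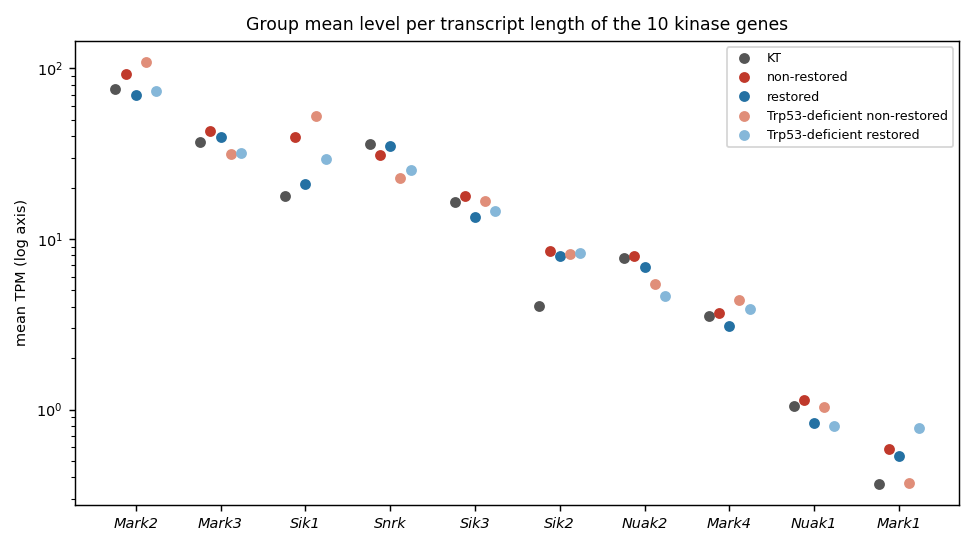
Mean TPM of each kinase gene (vertical axis, logarithmic) in the 5 groups (colors), with genes ordered along the horizontal axis. *Mark2* is highest in every group and *Mark1* lowest, while *Sik1* spans 17.8 in *KT* to 52.3 TPM in *Trp53*-deficient non-restored tumors.

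Partners of the kinases were followed as lists. Their counts are read beside the shares of all genes that passed, 1.87% in restored versus non-restored and 5.86% in non-restored versus *KT* tumors. Of 7 SIK substrates, 0 passed in restored versus non-restored tumors and 1 passed in non-restored versus *KT* tumors: *Hdac7*, a class IIa histone deacetylase, fell by 0.99 on the log2 scale (SE 0.20, edgeR adjusted p = 0.00381). *Hdac7* was at 0.49 (adjusted p = 0.147) in restored versus non-restored tumors. The coactivator genes *Crtc1*, *Crtc2* and *Crtc3* were at -0.20, -0.18 and 0.36 in restored versus non-restored tumors, none passing, and the median of the 7 substrates was 0.01 beside -0.01 for all genes.

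Of 13 genes known to respond to CREB and CRTCs, 12 were tested. In non-restored versus *KT* tumors, where 2.38% of all genes rose, 2 of the 12 rose and 0 fell: *Dusp1*, a MAP kinase phosphatase, by 1.14 (SE 0.29, adjusted p = 0.0226) and *Pde4d*, a cAMP phosphodiesterase, by 0.69 (SE 0.18, adjusted p = 0.0234). The median of the 12 was 0.53 beside 0.03 for all genes, with 8 of 12 above 0. The summed TPM of the list varied widely in *KT*, from 280.9 to 1245, and overlapped that of non-restored libraries (844.4 to 1638). In restored versus non-restored tumors 0 passed, 6 of 12 were above 0 and the median was -0.08, with *Pde4d* at -0.44 (adjusted p = 0.123) and *Dusp1* at -0.23 (adjusted p = 0.702). Of 17 immediate early genes, which respond within minutes to many stimuli including tissue dissociation and of which *Fosb* is also in the CREB list, 16 were tested in these fits and 0 passed. Their medians were 0.42 in restored versus non-restored tumors, with 14 of 16 above 0, and 0.18 in non-restored versus *KT* tumors, with 10 of 16 above 0. Their part in the *Sik1* values was not tested. In *Trp53*-deficient versus wild-type non-restored tumors 16 of 17 were above 0 (median 0.59). *Klf6*, a zinc finger transcription factor, rose by 0.92 there (edgeR adjusted p = 0.0158). In the restored pair 5 of 17 were above 0 (median -0.22) and 0 passed. In *Trp53*-deficient restored versus non-restored tumors 2 of 17 were above 0 (median -0.27) and 0 passed. The interaction had 1 of 17 above 0 (median -0.75), with 9 at an unadjusted edgeR p under 0.05 and 0 passing.

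Among the PKA genes, whose kinase phosphorylates and inhibits SIKs, 1 of 8 tested passed in non-restored versus *KT* and in restored versus non-restored tumors, beside 5.86% and 1.87% of all genes, and the medians of the 8 were 0.17 (all genes 0.03) and -0.17 (all genes -0.01). This was *Prkar2a*: the regulatory subunit gene rose by 0.63 in non-restored versus *KT* tumors (SE 0.17, adjusted p = 0.0269) and fell by 0.61 in restored versus non-restored tumors (SE 0.14, adjusted p = 0.0180). Among the 7 genes of 14-3-3 proteins, *Sfn* (14-3-3 sigma, an epithelial member) rose by 1.41 (SE 0.42, adjusted p = 0.0471) and fell by 1.55 (SE 0.32, adjusted p = 0.0131) in the same comparisons. The other 6 did not pass; all 7 were above 0 in non-restored versus *KT* (median 0.56, all genes 0.03) and below 0 in restored versus non-restored tumors (median -0.38, all genes -0.01). These comparisons share the non-restored libraries. Of 6 genes of the CREB family, 0 passed in either comparison.

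Of 13 MARK substrates and polarity partners, 12 were tested, and 0 passed in restored versus non-restored tumors. In non-restored versus *KT* tumors *Map2*, a microtubule-associated protein, rose by 2.21 (SE 0.64, edgeR adjusted p = 0.0433) and *Kif13b*, a kinesin that MARK2 phosphorylates, fell by 0.66 (SE 0.12, adjusted p = 0.00250). The median of the 12 was -0.07 beside 0.03 for all genes. Of 6 NUAK substrate and myosin phosphatase genes, 0 passed in either comparison. Of the other LKB1-dependent kinases, the AMPK catalytic genes *Prkaa1* (-0.19, adjusted p = 0.555) and *Prkaa2* (0.54, adjusted p = 0.608) did not pass in restored versus non-restored tumors, and *Brsk1* and *Brsk2* were too low to be tested. Of 5 AMPK regulatory subunit genes 4 were tested and 0 passed, and within the LKB1 complex *Stk11* alone passed out of 5. Of 3 related kinase genes outside LKB1 control 1 was tested: *Nim1k* fell by 1.41 in non-restored versus *KT* tumors (SE 0.42, adjusted p = 0.0467).

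**Figure D5:**
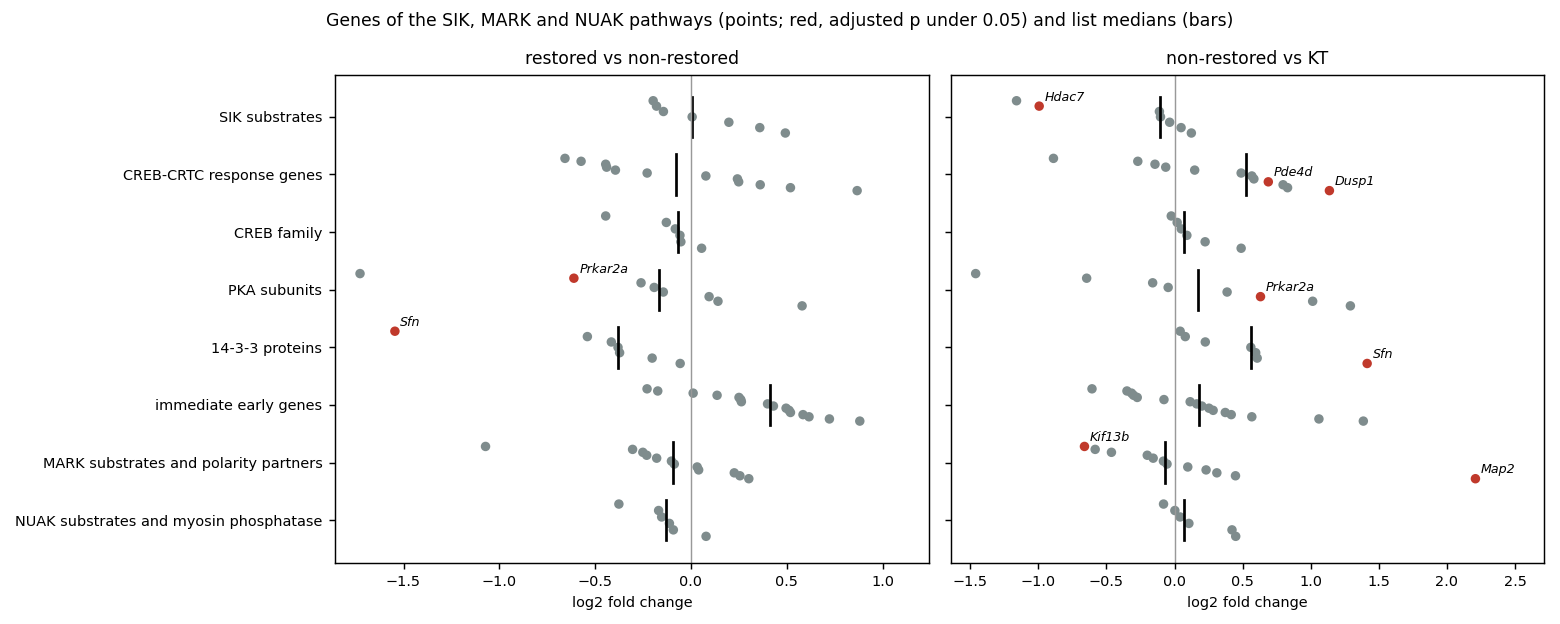
Log2 fold change (horizontal axis) of each tested gene (points, red where the adjusted p was under 0.05) in 8 lists around the kinases (rows), with the list median as a bar, for restored versus non-restored (left) and non-restored versus *KT* tumors (right). The 14-3-3 points lie below 0 on the left (median -0.38) and above 0 on the right (median 0.56), with *Sfn* in red in both.

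By Pearson correlation of log2 CPM over the 29 libraries or animals, the genes most like *Sik1* among 13273 included *Rnh1* (0.894), a ribonuclease inhibitor, *Gatsl2* (0.870), *Hint1* (0.864), a nucleotide-binding hydrolase, and *Cycs* (0.859), cytochrome c. The points share libraries, groups and depth, so these values describe the set only. *Gatsl2* averaged 17.9 ± 2.04 CPM in *KT* (SD, n = 4), 35.9 ± 13.2 in non-restored (SD, n = 10) and 15.1 ± 3.15 in restored tumors (SD, n = 7), and *Rnh1* averaged 69.3 ± 8.90, 101 ± 22.8 and 69.4 ± 10.2 CPM. As *Sik1* sets this order, no test is given for these genes. Around *Sik1* itself, at chr17:31844250-31855804, 1 of 41 genes tested within 2 Mb passed in restored versus non-restored and 2 of 41 in non-restored versus *KT* tumors, close to the shares of all genes (1.87% and 5.86%).

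The sort was meant to leave neoplastic cells, and markers of other cells were still detected. In restored versus non-restored tumors 12 of 12 alveolar type II markers were above 0 (median 0.60) and *Lyz2* rose by 1.83 (SE 0.44, adjusted p = 0.0313), while in non-restored versus *KT* tumors 11 of 12 were below 0 (median -0.65) and *Lyz2* fell by 1.73 (SE 0.50, adjusted p = 0.0431). Of 8 alveolar type I markers, 3 were above 0 and 5 below in restored versus non-restored tumors (median -0.27). *Emp2* fell by 0.62 there (edgeR adjusted p = 0.0385). In non-restored versus *KT* tumors 5 of the 8 were above 0 and 3 below (median 0.25). There *Emp2* rose by 0.95 (edgeR adjusted p = 0.00475) and *Pdpn* fell by 2.59 (edgeR adjusted p = 0.0269). Of 10 immune markers 5 were tested, all 5 above 0 in restored versus non-restored tumors (median 1.02) and 0 passing. In non-restored versus *KT* tumors 3 were above 0 and 2 below (median 0.06), with 0 passing. *Ptprc*, which encodes the CD45 used to exclude cells, averaged 0.772, 4.49 and 14.1 CPM in *KT*, non-restored and restored tumors. Its highest restored value was 46.3 CPM. *Cd3e* was at 0 in all *KT* and restored libraries and in 9 of 10 non-restored libraries. The summed immune TPM ran from 1213 to 2634 in *KT*, from 150.0 to 1913 in non-restored and from 1498 to 2994 in restored tumors, and it includes *Cd74*, which alveolar type II cells also express. Summed endothelial TPM ran from 4.17 to 8.15, 1.96 to 68.2 and 1.46 to 44.5, and summed fibroblast TPM from 10.27 to 40.3, 2.61 to 209.8 and 14.3 to 138.0 in the same groups. All 6 tested endothelial and all 7 fibroblast markers were above 0 in non-restored versus *KT* tumors (medians 2.30 and 1.51) and 0 passed. Of 10 tested proliferation genes all were below 0 in restored versus non-restored tumors (median -0.54) and 0 passed. Airway markers, 4 of 6 tested, had 0 passing, and red blood cell genes were too low to be tested. The part of these cells in the values of *Sik1* and the other kinase genes was not tested.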

How the data were processed

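RNA was measured by rRNA-depleted RNA sequencing of sorted tumor cells in 32 libraries. Per the labels and the study's methods, the authors aligned reads with STAR 2.6.1d and quantified genes with RSEM 1.2.30 (DESeq2 1.26.0 for their own comparisons). The values the authors deposited and that were used here are the RSEM expected count, the TPM and the effective length per gene and library. Deposited series-wide tables of the authors' normalized values and of their comparisons (fold changes and p-values) were not used.

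Expected counts were rounded, and the 7 *Trp53*-deficient non-restored libraries were summed into 4 animals, giving 29 units. Genes were filtered with filterByExpr, scaled by TMM and tested with edgeR 4.0.16 (quasi-likelihood F test, Benjamini-Hochberg over all genes tested, threshold 0.05; R 4.3.3). *KT*, non-restored and restored tumors shared one fit (21 libraries, the *KT* and both arms included), *Trp53*-deficient tumors had their own, and comparisons across *Trp53* status used a fit of 25 units. SE is the log2 fold change divided by the square root of F, and 95% intervals are normal approximations from it. These intervals are too narrow where few units were fitted, most of all in the *Trp53*-deficient set. Log2 CPM used a prior count of 2. A limit for a count of 0 is 3 counts per library and covers counting error only. The procedure was tested on simulated data of independent units, which does not cover libraries that share mice. Alternatives were DESeq2 1.42.0, other scaling, no filter, length offsets, sex, single arms and leaving out each library. Whether the replicate numbers in the labels pair samples was not settled. The correlation of deviations was over 0.1 in 6 of 15 same-number pairs. Between restored and non-restored libraries it ran from 0.035 to 0.475. Pairs with unlike numbers were not examined.

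Named genes are the 10 kinases, *Stk11* and *Trp53*, up to 3 passing genes per list and comparison, the 5 genes most like a passing kinase gene, and genes overlapping a kinase gene. The CRTC genes, the other LKB1-dependent kinase genes, *Sftpc*, *Ptprc* and *Cd3e* were named outside this rule, after their values were seen. In all, 1 gene of that rule and 1 allele shared by all groups are not reported here. Members and lists were chosen with earlier results of these data known. In non-restored and restored tumors, *Trp53* wild-type, libraries were the units although some share mice that the labels do not identify. Their p-values are therefore too small and their intervals too narrow. Sequences were read from GENCODE M21 on GRCm38.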

Additional observations from a re-analysis of the deposited data

Results flagged for a closer look

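Values that stood apart from their group by Dixon's test were found in 3 of the 50 combinations of 10 kinase genes and 5 groups, and chance alone gives about 1 in 20. *Sik2* was at 48.81 CPM (214 counts) in non-restored library 8, against 26.79 in the next library. *Mark2* was at 151.4 CPM (687 counts) in non-restored library 6, against 100.1 in the next, and this is the library with the short *Mark2* effective length. *Mark2* was at 113.8 CPM (581 counts) in *Trp53*-deficient restored library 2, against 74.09 in the next, and that library also held the highest *Sik1* of its group (153.7 CPM).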

How the results depend on the processing

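In restored versus non-restored tumors the count of 1 became 0 with the tamoxifen arm alone, and stayed at 1 when each library was left out. In non-restored versus *KT* tumors the count of 1 became 2 with DESeq2 and 0 among female libraries alone, and ran from 0 to 2 when each library was left out (0 without *KT* library 1, 2 without *KT* library 3). With the replicate block the counts were 1, 1 and 0 in the 3 comparisons of *KT*, non-restored and restored tumors, *Sik1* was at -0.72 (SE 0.16, adjusted p = 0.0304) and 0.86 (SE 0.21, adjusted p = 0.0256), and 270, 705 and 67 genes passed in all. When each library was left out *Sik1* ran from -0.91 to -0.74 (adjusted p 0.00877 to 0.0378) in restored versus non-restored and from 0.82 to 1.11 (adjusted p 0.00728 to 0.0560) in non-restored versus *KT* tumors. Counts over all genes moved more. In restored versus non-restored tumors 236 became 467 with DESeq2 and 50 with the tamoxifen arm alone (145 to 319 leaving out 1 library). In non-restored versus *KT* tumors 741 became 132 among females and 280 with the tamoxifen arm alone (340 to 951). In restored versus *KT* tumors 58 became 168 with DESeq2, 22 with sex as a covariate and 10 among females (21 to 57). Between the arms 1 became 12 with DESeq2 and 0 with sex or no filter. In the *Trp53*-deficient set 0 became 23 with DESeq2, 3 with no filter, and 1 with length offsets or with 7 libraries as units; the interaction's 0 became 1 with the vehicle arm alone or females. Between *Trp53*-deficient and wild-type non-restored tumors 80 became 412 with DESeq2, 465 with 7 libraries as units and 43 among females (26 to 1448, the last without non-restored library 8), and between the restored groups 51 became 216 with DESeq2 (25 at the lowest). The causes were not tested. Depth limited *Mark1*, *Nuak1* and *Mark4*.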
